A study of Homo sapiens with 6 samples.

Results

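The regions described here are all listed ATAC-seq peaks on chromosome 1 of KMS-11, an established multiple myeloma cell line, divided at 125 Mb (hg38) into the short arm (1p) and the long arm (1q). Peaks were merged where they overlapped within a library, and every one was kept, so the choice used position only and no measured value. Each library held 5151 to 6147 merged regions on the short arm and 10048 to 13176 on the long arm, of 135070 to 171685 on chromosomes 1 to 22 and X. Merged over all 6 libraries, the short arm held 12359 regions and the long arm 31013, of 378213. Controls were KMS-11 cells with the lentiviral vector LentiV2 (3 libraries), and ATF4-knockdown cells carried LentiV2_ATF4g3, a vector named for a guide against ATF4 (3 libraries). Both groups have the genotype label WT, the libraries are titled as biological replicates, and only 1 guide is named. The peak lists do not measure ATF4 RNA or protein, so the knockdown was not checked from them.

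ATAC-seq marks open chromatin, because the Tn5 transposase cuts and tags DNA that nucleosomes do not protect. The number of fragments over a stretch of genome depends on how open it is and also on how many copies of it the cells carry. Gain of 1q and loss of parts of 1p are recurrent in myeloma. MCL1, which protects cells from apoptosis, and CKS1B, a cofactor of the SCF-SKP2 ubiquitin ligase that removes the cell cycle inhibitor p27, are the 1q genes named most often. On 1p, CDKN2C encodes an inhibitor of the kinases CDK4 and CDK6, and TENT5C encodes an RNA polymerase that lengthens mRNA tails in plasma cells. Copy number was not measured in these libraries, so copy number and openness cannot be told apart below.

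RefSeq promoters (GRCh38.p14, 250 bases before to 50 after the gene start, 5′ to 3′ on the gene's strand) are printed for CKS1B, at chr1:154974431-154974730 on the plus strand, and for a gene in each of 2 dense stretches of the short arm described further on. MAGOH, which encodes a core protein of the exon junction complex, lies at chr1:53238469-53238768 on the minus strand, and HOOK1, which encodes a linker of cargo to microtubules, at chr1:59814699-59814998 on the plus strand. All 3 windows carried a listed peak in 6 of 6 libraries. Capitals mark TGACGTCA (the cAMP response element that ATF and CREB proteins bind), TGATGNAA (part of the composite ATF4 and C/EBP element) or a loose NF-kB pattern (GGGA and CC with any 4 bases between), searched on both strands.
CKS1B: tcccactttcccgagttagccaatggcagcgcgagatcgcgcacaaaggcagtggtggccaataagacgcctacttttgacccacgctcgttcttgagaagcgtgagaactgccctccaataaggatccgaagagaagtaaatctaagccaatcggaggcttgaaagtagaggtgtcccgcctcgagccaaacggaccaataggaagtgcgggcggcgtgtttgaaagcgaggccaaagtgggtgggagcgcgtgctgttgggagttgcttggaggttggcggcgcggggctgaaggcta
MAGOH: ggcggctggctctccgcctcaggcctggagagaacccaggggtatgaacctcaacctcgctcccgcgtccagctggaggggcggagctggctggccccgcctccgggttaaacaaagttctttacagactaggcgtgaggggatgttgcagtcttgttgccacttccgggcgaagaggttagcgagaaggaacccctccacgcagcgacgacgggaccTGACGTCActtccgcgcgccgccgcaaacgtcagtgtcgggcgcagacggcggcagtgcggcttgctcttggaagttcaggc
HOOK1: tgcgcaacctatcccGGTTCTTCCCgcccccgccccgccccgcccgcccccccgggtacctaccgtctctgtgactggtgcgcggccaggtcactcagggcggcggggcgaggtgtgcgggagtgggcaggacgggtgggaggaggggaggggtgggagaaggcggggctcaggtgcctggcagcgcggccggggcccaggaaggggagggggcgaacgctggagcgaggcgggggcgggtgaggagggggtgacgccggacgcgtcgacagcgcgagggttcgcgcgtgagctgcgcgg
The CKS1B window held none of these patterns, the MAGOH window held TGACGTCA and the HOOK1 window held the NF-kB pattern. In the same dense stretch as MAGOH, the windows of CPT2 and ORC1 held none of these patterns and that of TXNDC12 held only the NF-kB pattern. TGACGTCA was in 2.59% of 15811 promoters of all chromosomes, in 2.84% of 914 on the short arm and in 1.08% of 833 on the long arm. TGATGNAA was in 2.54% of all, 2.08% on the short arm and 3.96% on the long arm. The NF-kB pattern was in 29.1% of all, 30.4% on the short arm and 23.9% on the long arm. A match is a description of the letters and not a site of binding.

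The 2 arms differed in every library. The long arm held more weak regions, more strong regions and higher peaks at genes than the short arm. Protein-coding genes numbered 8.70 per Mb on the short arm and 8.85 per Mb on the long arm, and the part of gene content in the gap was not tested. A weak region is one whose best −log10 q, the authors' peak score after correction for multiple testing, is below 2, and a strong one reaches 10. Densities were taken over 5 Mb bins with at least 50 merged regions on average, which covers 125 Mb of the short arm and 110 Mb of the long arm and leaves out the centromeric stretch, where no peak was listed between 125066157 and 143424448.

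Weak regions lay on the short arm at 6.88, 7.33 and 4.94 per Mb in controls 1 to 3 and at 15.2, 15.4 and 12.1 per Mb in knockdown libraries 1 to 3. The long arm had 31.9, 35.0 and 26.0 per Mb in controls and 53.7, 47.1 and 45.3 per Mb in knockdown libraries. The lowest long-arm value lay above the highest short-arm value. The ratio of long to short arm was 4.09 as a geometric mean, with a range of 3.07 to 5.25 (6 of 6 libraries above 1, exact sign-flip test, two-sided p = 0.031, which is the smallest p that 6 libraries allow, and 0.031 after Benjamini-Hochberg adjustment over 5 measures). Among 24 units (22 other chromosomes and the 2 arms), the long arm ranked 1 in weak regions per Mb in all 6 libraries, and the short arm ranked 18 to 21.

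Strong regions showed a smaller gap. The short arm held 23.3, 25.4 and 22.9 strong regions per Mb in controls and 15.4, 16.2 and 17.8 in knockdown libraries. The long arm held 33.7, 36.6 and 33.2 in controls and 24.4, 25.1 and 26.7 in knockdown libraries. Within each group every long-arm value lay above every short-arm value, and the ratio was 1.49 (range 1.44 to 1.58, 6 of 6 libraries, exact sign-flip p = 0.031, adjusted 0.031). The short arm was close to the other chromosomes, which held 23.4 ± 1.35 per Mb in controls and 16.2 ± 1.09 in knockdown libraries (SD, n = 3 each), and ranked 12 of 24 in every library. The median fold enrichment that the authors' peak caller gave was lower on the long arm, at 3.25 ± 0.164 against 5.25 ± 0.25 on the short arm in controls and 3.03 ± 0.0959 against 3.66 ± 0.261 in knockdown libraries (SD, n = 3). Its ratio was 0.716 (range 0.615 to 0.858, lower in 6 of 6 libraries, exact sign-flip p = 0.031, adjusted 0.031).

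Peak height was compared through the pileup, the number of fragments stacked at a summit, which was computed back from the deposited fold and p-value and divided by the library's own background rate. Over regions listed in all 6 libraries (2858 on the short arm and 3975 on the long arm), the median pileup was 22.5 ± 3.34 times the rate on the short arm and 27.7 ± 4.64 times on the long arm in controls, and 14.5 ± 1.53 and 17.9 ± 1.70 times in knockdown libraries (SD, n = 3). The ratio of the arms was 1.23 (range 1.2 to 1.25, 6 of 6 libraries, exact sign-flip p = 0.031, adjusted 0.031). The regions behind it are not the same mix on both arms, since 25.7% of them lay within 1 kb of a gene end on the short arm and 18.0% on the long arm.

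Restricted to genes, a comparison added after the data were seen, the gap was wider. The highest pileup within 1 kb of either end of each gene, for genes with a summit there in all 6 libraries (718 of 1088 short-arm genes and 660 of 973 long-arm genes), had a median of 58.5, 68.7 and 55.9 times the rate on the short arm in controls and 43.1, 47.1 and 48.6 times in knockdown libraries. On the long arm the medians were 123, 140.0 and 114 times in controls and 80.9, 92.4 and 94.7 times in knockdown libraries. Each long-arm median exceeded every short-arm median, and the ratio was 1.99 (range 1.88 to 2.11, 6 of 6 libraries, exact sign-flip p = 0.031, unadjusted). Against the genes of all other chromosomes the long arm stood at 1.69 (range 1.64 to 1.74) and the short arm at 0.848 (range 0.825 to 0.871).

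**Figure D1:**
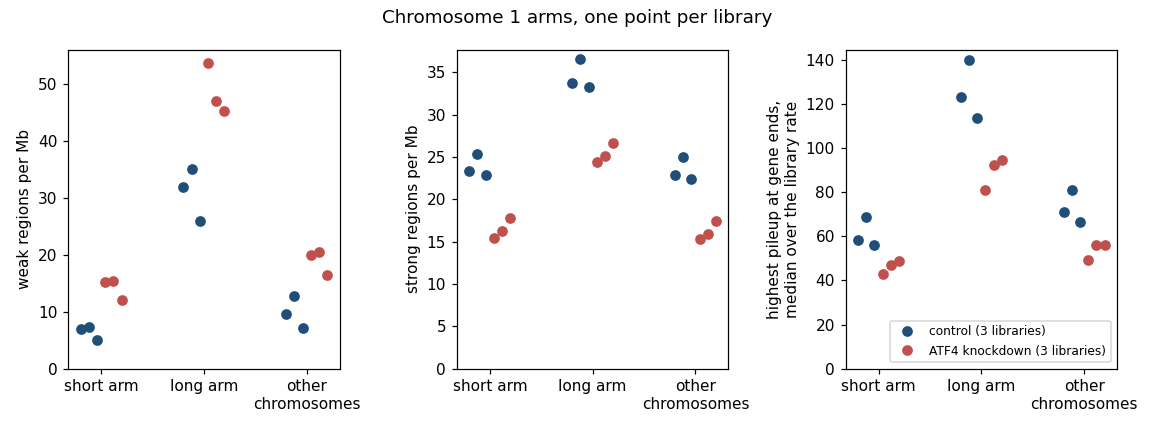
Weak regions per Mb (left), strong regions per Mb (middle) and the median over genes of the highest pileup at gene ends over the library rate (right) for the short arm, the long arm and all other chromosomes, with 1 point for each of 3 control (blue) and 3 ATF4-knockdown (red) libraries. The long-arm points lie above the short-arm points of the same group in every panel, with weak densities of 26.0 to 53.7 against 4.94 to 15.4 per Mb.

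The last measure was the share of weak summits whose local background, the count expected there by the peak caller, exceeded the library rate by more than 1%. On the short arm it was 54.6%, 34.0% and 61.4% in controls and 59.2%, 46.3% and 57.0% in knockdown libraries. On the long arm it was 60.5%, 35.5% and 70.0% in controls and 78.2%, 65.4% and 74.4% in knockdown libraries. Control 2 was the lowest library on both arms and on the other chromosomes, where it had 25.3%. The ratio of the arms was 1.21 (range 1.04 to 1.41, 6 of 6 libraries, exact sign-flip p = 0.031, adjusted 0.031). It lost the call when the short arm was counted only up to 60 Mb, a limit added after the data were seen (log2 ratio 0.12, exact p = 0.15625).

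Neither arm was even along its length. The short arm fell into a denser outer part and a sparse inner part: weak regions lay at 9.82 ± 1.72 per Mb up to 60 Mb and 3.22 ± 1.1 per Mb from 60 to 125 Mb in controls, and at 23.3 ± 2.41 and 5.85 ± 1.33 per Mb in knockdown libraries (SD, n = 3). On the long arm the stretch from 145 to 190 Mb held 41.6 ± 3.81 per Mb in controls and 61.6 ± 4.83 in knockdown libraries, and the stretch from 200 to 250 Mb held 24.4 ± 5.14 and 42.4 ± 4.69. The bin from 185 to 190 Mb had the highest weak density of 585 bins in the genome (65.8 per Mb, mean of 6 libraries), with 11 genes in it. These boundaries, and those of the blocks below, were drawn after the values were seen, so they are described with no test.

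Raised local background followed the same outline with a sharper drop. The 3 bins of chromosome 1 with the highest share, as means over 6 libraries, were 180 to 185 Mb (83.3%), 155 to 160 Mb (81.5%) and 165 to 170 Mb (79.4%), all on the long arm. The 3 lowest were 95 to 100 Mb (20.7%), 70 to 75 Mb (25.2%) and 80 to 85 Mb (26.7%), all on the inner short arm. Between the 1 Mb from 190 to 191 Mb and the next 1 Mb, the share went from 52.5% to 15.7% in controls and from 68.8% to 24.1% in knockdown libraries (means of 3). Across the 22 long-arm bins, weak density and the number of genes had a Spearman rho of -0.15 to 0.21 in the 6 libraries, against 0.69 to 0.72 across the 25 short-arm bins. Strong density followed the number of genes on both arms, with a rho of 0.78 to 0.82 on the long arm and 0.85 to 0.89 on the short arm. The bins share library and depth.

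Peak height at genes gave another view of the chromosome. Relative to the median over the genes of the other chromosomes, genes from 145 to 190 Mb stood at 1.98 ± 0.0727 (SD over 6 libraries, 380 genes), those from 191 to 200 Mb at 2.21 ± 0.187 (14 genes) and those from 200 to 250 Mb at 1.33 ± 0.0303 (262 genes). Over regions listed in all 6 libraries, the stretch from 190 to 200 Mb went the other way. Its median pileup was 14.7 times the rate in controls and 10.3 times in knockdown libraries. The other chromosomes had 22.4 and 14.4 times (means of 3). On the short arm, genes up to 47 Mb stood at 0.907 ± 0.0293 (449 genes) and genes from 60 to 110 Mb at 0.858 ± 0.0425 (157 genes). The 57 genes from 110 to 120 Mb stood lower, at 0.413 ± 0.0219, with a range of 0.372 to 0.438 over the libraries. That stretch holds NRAS, a small GTPase often mutated in myeloma, the adhesion molecule CD58 and TENT5C. Its low level is that of peaks at gene ends. Over regions listed in all 6 libraries, the 5 Mb bin starting at 110 Mb was close to the other chromosomes. Its median pileup was 21.0 times the rate in controls and 13.4 times in knockdown libraries. The bin ending at 120 Mb was lower, at 16.7 and 9.91 times (means of 3).

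**Figure D2:**
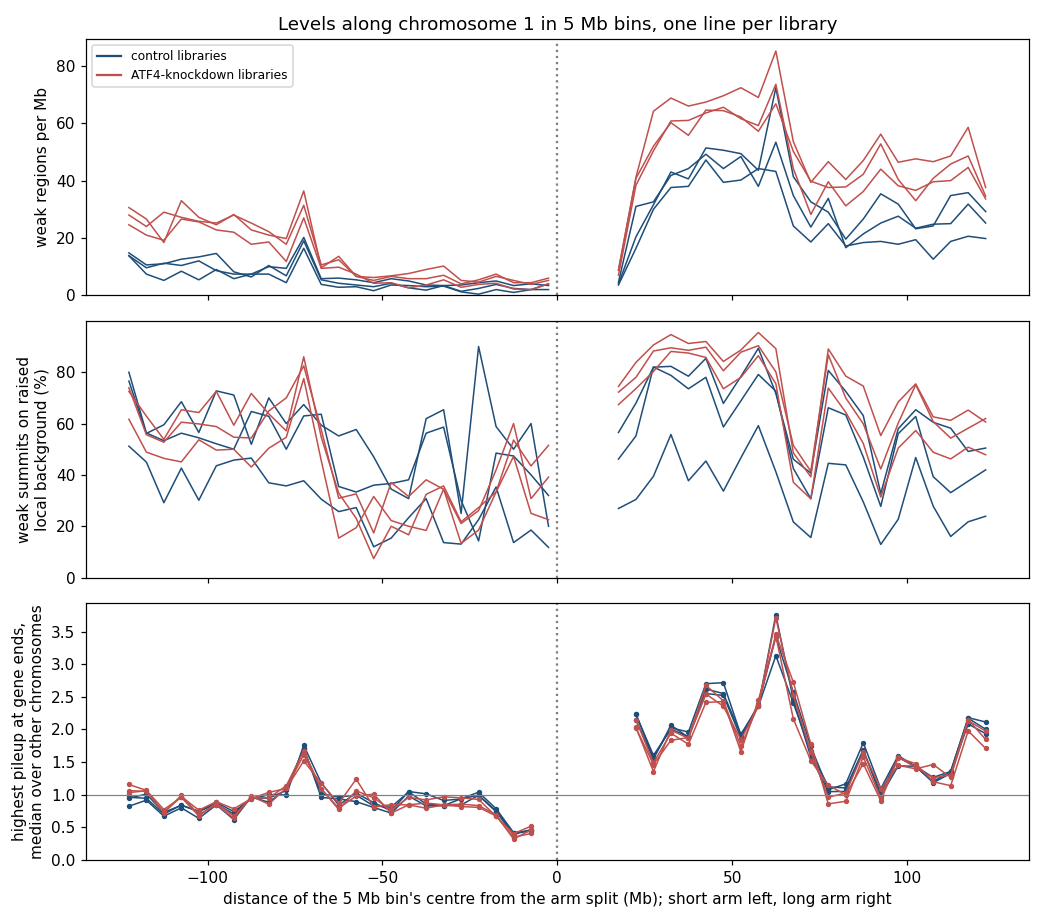
Weak regions per Mb (top), share of weak summits on raised local background in % (middle) and highest pileup at gene ends relative to the genes of other chromosomes (bottom, bins with at least 5 genes) in 5 Mb bins of chromosome 1, against distance from the arm split in Mb, with 1 line per library (control blue, ATF4 knockdown red). All 3 levels are high on the long arm from 145 to 185 Mb, whereas the bin from 140 to 145 Mb held 6.13 weak regions per Mb. The 2 bins from 110 to 120 Mb are the lowest drawn in the bottom panel, at 0.382 and 0.456 (means of 6 libraries).

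At the inner end of the outer short arm, among windows with few weak regions, lay 2 blocks with sharp borders. In 0.25 Mb windows, the weak regions summed over the 6 lists had a median of 9 on the short arm and 61 on the long arm from 143.5 Mb on, and 40 of 500 short-arm windows but 354 of 421 long-arm windows reached 40. The short arm had 11 runs of at least 2 such windows (bridging 1 window below), and the 2 that stood out most from the windows beside them ran from 51.75 to 54.75 Mb and from 59.5 to 60 Mb. Their windows averaged 58.6 and 63.0 weak regions, against at most 8.5 and 6.5 in the 2 windows on either side. In steps of 50 kb the last step before the first block held 0 weak regions and the steps after its start held 6, 10, 14, 15 and 11. At its other end the last 5 steps held 14, 27, 10, 15 and 0, and the next held 1. The step before the second block held 2 and the step after its start 14, and its last step held 10 where the next held 0.

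Per library the first block held 26.0 to 30.3 weak regions per Mb in controls and 43.0 to 57.3 in knockdown libraries, whereas the 3 Mb to its left held 0.667 to 3.33 and 1.67 to 5.33. The 3 Mb to its right held 1.0 to 2.33 and 4.0 to 7.0. The block's densities are near the 26.0 to 35.0 and 45.3 to 53.7 per Mb of the long arm. No value of a flank reached the block's lowest, but the block was picked for this contrast in weak density. Strong regions also were denser in the block, at 30.3 per Mb in controls and 23.7 in knockdown libraries, against 8.78 and 4.78 to the left and 10.3 and 6.33 to the right (means of 3). The block holds 42 gene starts, the left flank 9 and the right flank 14. Strong density followed the number of genes across short-arm bins (Spearman rho 0.85 to 0.89 in the 6 libraries). Whether the block differs from its flanks beyond gene number was not tested. Of weak summits in the block, 35.0% to 67.0% in controls and 81.9% to 90.0% in knockdown libraries lay on raised local background. In controls the left flank (18.2% to 100%, of 2 to 11 summits) and the right flank (28.6% to 53.8%, of 5 to 13) overlapped the block, and in knockdown libraries they did not (16.7% to 50% and 9.52% to 35.3%).

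Peaks at the genes of the first block were high as well. The 27 of its 42 genes with a summit in all libraries had a median of 1.91 ± 0.133 relative to other chromosomes (SD over 6 libraries), against 0.424 ± 0.0760 for 5 genes to the left and 0.409 ± 0.0257 for 8 genes to the right. TXNDC12, which encodes a thioredoxin-domain protein of the endoplasmic reticulum, reached 232 ± 49.3 times the library rate in controls and 155 ± 6.38 in knockdown libraries. CPT2, a mitochondrial enzyme of fatty acid oxidation, reached 124 ± 14.9 and 72.5 ± 4.54 times (SD, n = 3). MAGOH reached 71.8 ± 17.9 and 56.7 ± 9.05 times. The block also holds NRDC, TUT4, SCP2, LRP8, NDC1 and SSBP3. CDKN2C and its neighbour FAF1 lie to the left of it and share 1 promoter peak, listed in 6 of 6 libraries, of only 26.9 ± 5.30 times the rate in controls and 26.7 ± 5.47 times in knockdown libraries. The second block is small: of its 3 gene starts only HOOK1 had a summit in all libraries, at 246 ± 24.7 and 189 ± 11.9 times the rate.

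**Figure D3:**
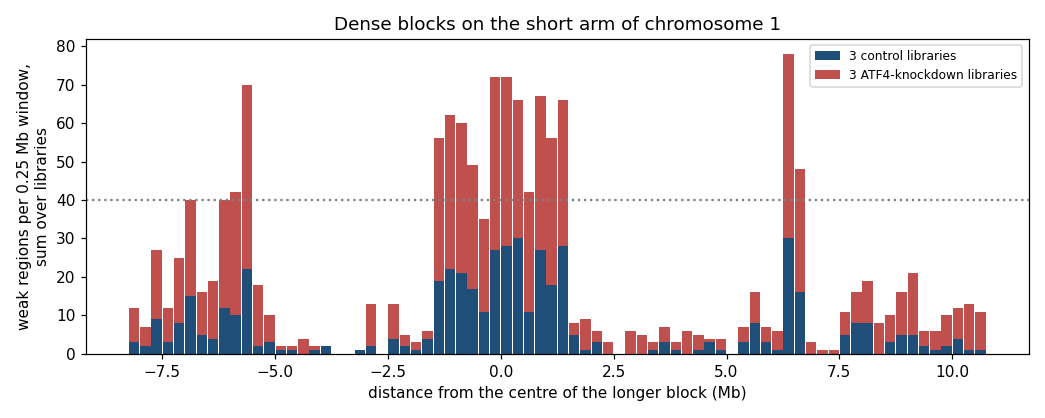
Weak regions per 0.25 Mb window, summed over 3 control (blue) and 3 ATF4-knockdown libraries (red, stacked), against distance in Mb from the centre of the longer block; the dotted line marks 40. The longer block spans 3 Mb around 0 and the shorter one lies to its right, both between windows that average at most 8.5 regions.

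At the long-arm genes named for gain in myeloma, CKS1B had one of the highest peaks of the genome and MCL1 a high one. The CKS1B summit had a pileup of 1009, 1096 and 1190 fragments in controls and 603, 592 and 756 in knockdown libraries, counts that carry the depth of each library. Divided by the library rate this was 349 ± 39.2 and 272 ± 30.6 times (SD, n = 3), and among 19970 genes CKS1B ranked 4 to 17. The same peak lies within 1 kb of an end of SHC1, an adaptor of receptor signalling. Gene-end peaks of the other chromosomes were also lower in knockdown libraries. Their medians were 70.9, 80.9 and 66.4 times the rate in controls and 49.4, 56.2 and 56.2 times in knockdown libraries, so the lower CKS1B values are not particular to this gene. MCL1 had a pileup of 421, 408 and 538 in controls and 293, 301 and 307 in knockdown libraries, and relative to the rate 132, 146 and 153 against 117, 140 and 122 times, where the groups overlapped. It ranked 655 to 2174.

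All 32 genes of the list of 1q gain in myeloma had a summit at a gene end in all 6 libraries, with a median height of 152, 169 and 142 times the rate in controls and 109, 122 and 117 times in knockdown libraries. Of the 20 genes of the list of 1p loss, 18 did, with medians of 53.3, 66.2 and 49.8 times in controls and 38.1, 44.8 and 46.2 times in knockdown libraries. In every library the median of the 1q list was the higher one, and the same held for all genes of the 2 arms. Those all-gene medians were 58.5, 68.7 and 55.9 times on the short arm and 123, 140 and 114 times on the long arm in controls. In knockdown libraries they were 43.1, 47.1 and 48.6 times and 80.9, 92.4 and 94.7 times. Whether the lists differ from the other genes of their arm was not tested. For 23 of 24 housekeeping genes of the chromosome, of which 18 tested genes lie on the short arm, the medians were 83.4, 95.2 and 81.5 against 63.4, 75.2 and 76.1 times. Single genes ranged widely. HDGF, a growth factor gene, reached 362 ± 62.6 times in controls, but ADAR, an RNA-editing enzyme gene on the same arm, reached 53.8 ± 4.85 and KDM5B, a histone demethylase gene, 22.7 ± 4.94 (SD, n = 3). On the short arm NRAS reached 25.4 ± 7.07 times, TENT5C 37.5 ± 3.00 and CD58 35.1 ± 1.37, while BCL10, an adaptor that activates NF-kB, reached 156 ± 30.5.

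**Figure D4:**
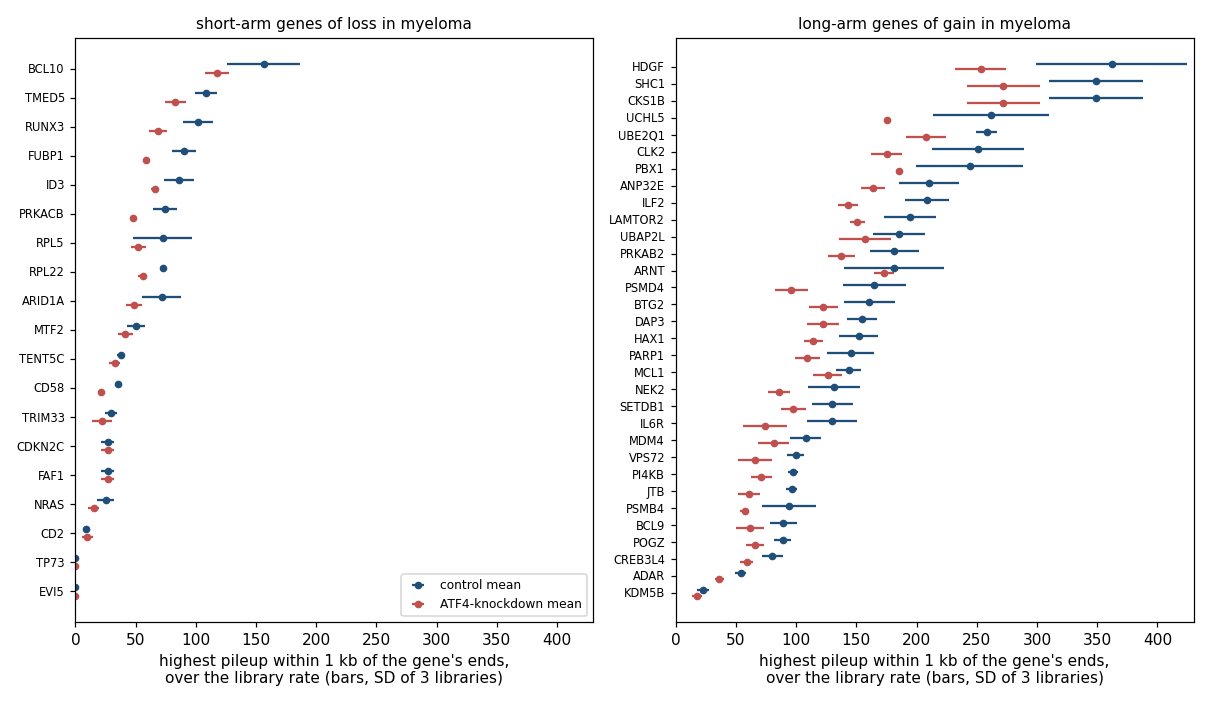
Highest pileup within 1 kb of the gene's ends over the library rate (x axis; points are means of 3 libraries, bars SD) for short-arm genes of loss in myeloma (left) and long-arm genes of gain in myeloma (right), controls blue and ATF4 knockdown red, with 1 short-arm gene of the list not drawn. Most long-arm genes lie to the right of most short-arm genes, with KDM5B and ADAR low on the long arm and BCL10 high on the short arm.

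The next comparison was between controls and knockdown. Across the genome, knockdown lists had more weak and fewer strong regions, and their background rates were lower (2.15 to 2.51 fragments against 2.79 to 3.52), so group and signal depth cannot be told apart. Arm values were therefore set against the other chromosomes of the same library. On that scale no measure of either arm passed the test: with 3 against 3 libraries the smallest exact permutation p is 0.1, and over 10 such tests the smallest adjusted p was 0.25. Weak density on the short arm was 0.658 times the other chromosomes in controls and 0.750 times in knockdown libraries, with no overlap (two-sided exact p = 0.1, adjusted 0.25). On the long arm it was 3.21 and 2.58 times, with overlap (exact p = 0.2, adjusted 0.333). Strong density on the long arm was 1.48 and 1.57 times, with no overlap (exact p = 0.1, adjusted 0.25), and on the short arm 1.02 times in both groups (exact p = 0.9, adjusted 1). The median fold on the long arm was 0.726 times that of the other chromosomes in controls and 0.905 times in knockdown libraries, with no overlap (exact p = 0.1, adjusted 0.25), and on the short arm 1.17 and 1.09 times, with overlap (exact p = 0.2, adjusted 0.333). The raised background share on the long arm was 1.35 and 1.58 times, with no overlap (exact p = 0.1, adjusted 0.25), and on the short arm 1.23 and 1.17 times, with overlap (exact p = 0.5, adjusted 0.714). The pileup level on the short arm was 1.01 and 1.0 times (exact p = 1, adjusted 1). It stood at 1.24 times the other chromosomes on the long arm in both groups (exact p = 0.6, adjusted 0.75).

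The gap between the arms was also compared between groups. The weak-density ratio of long to short arm was 4.63, 4.78 and 5.25 in controls and 3.53, 3.07 and 3.74 in knockdown libraries, without overlap (log2 difference -0.51, exact p = 0.1, adjusted 0.125 over 5 measures). The ratio of median folds was 0.619 and 0.830 (log2 difference 0.42, exact p = 0.1, adjusted 0.125), and that of raised background shares was 1.1 and 1.35 (log2 difference 0.30, exact p = 0.1, adjusted 0.125). The pileup ratio was 1.23 and 1.24 (log2 difference 0.01, exact p = 0.7). At gene ends it was 2.06 and 1.93 (log2 difference -0.09, exact p = 0.1).

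Peak-covered length, the number of bases under listed peaks scaled to each library's total, changed along the chromosome by a test across all 585 bins (limma, Benjamini-Hochberg adjusted p under 0.05). Of 47 bins of chromosome 1, 12 were lower in knockdown libraries and 12 were higher, where 32.5% of bins genome-wide were lower and 20.0% higher. All 12 lower bins lay on the short arm between 55 and 120 Mb, and 10 of the 12 higher bins lay on the long arm. Of 25 short-arm bins 12 were lower and 2 higher, and of 22 long-arm bins none was lower and 10 were higher, with 0 lower at an unadjusted p under 0.05. The median log2 difference was -0.05 over short-arm bins and 0.07 over long-arm bins, beside -0.03 over all bins.

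The lowest bin was the one that ends at 120 Mb, which includes TENT5C and CD58. It had 72457, 78730 and 69482 covered bases in controls and 47066, 53066 and 53119 in knockdown libraries before scaling, and no value overlapped (log2 difference -0.39, SE 0.05, limma adjusted p = 7.0e-11). The bin from 70 to 75 Mb followed (log2 difference -0.35, SE 0.06, adjusted p = 2.1e-07). Among higher bins the furthest was 215 to 220 Mb, with 129290, 130640 and 109210 covered bases in controls and 142840, 137730 and 129020 in knockdown libraries, where the unscaled groups overlapped (log2 difference 0.28, SE 0.04, adjusted p = 2.3e-10). The bins from 240 to 245 Mb (log2 difference 0.21, SE 0.04, adjusted p = 1.2e-06) and from 245 to 250 Mb (0.20, SE 0.04, adjusted p = 2.7e-06) came next. Without scaling 21 of 47 bins of chromosome 1 were lower and 0 higher, beside 62.1% and 4.44% of all bins, so the higher calls are relative to the whole library. Without knockdown 3 the higher bins numbered 5, without knockdown 1 they numbered 6 and without control 1 they numbered 7.

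**Figure D5:**
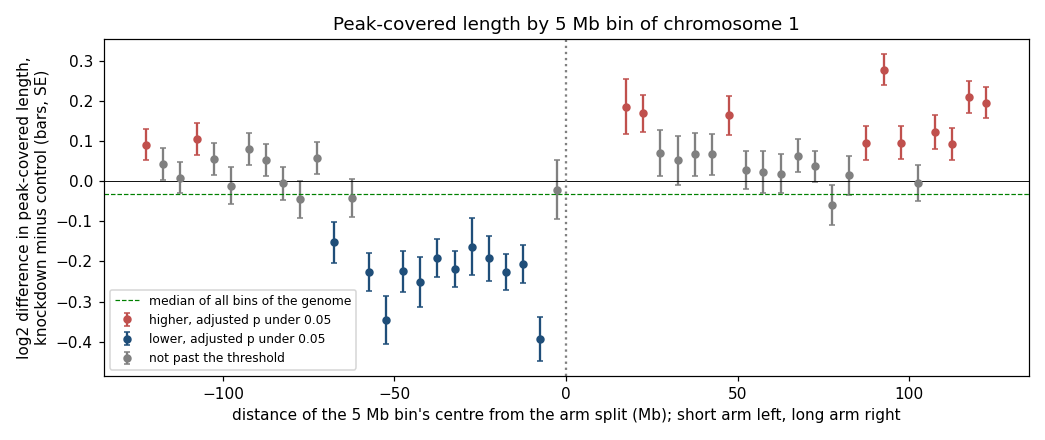
Log2 difference in scaled peak-covered length, knockdown minus control, by 5 Mb bin of chromosome 1 (points, with SE) against distance from the arm split in Mb; red bins are higher and blue bins lower at an adjusted p under 0.05 (limma). The lower bins run along the inner short arm, where the lowest is -0.39, and the higher ones lie mostly on the long arm, up to 0.28.

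At the level of genes, covered length within 10 kb of gene ends called 0 of 1970 chromosome 1 genes in either direction by limma, with a background of 0.0% of 18602 genes. At an unadjusted p under 0.05, 125 of 1009 tested short-arm genes were lower and 51 higher, and 77 of 961 long-arm genes were lower and 96 higher, where 9.08% of all genes were lower and 4.89% higher. The count depended on which peaks were used: with only peaks of −log10 q of at least 5, 563 of 1806 genes of the chromosome were higher and 61 lower, where 30.7% of all genes were higher and 3.17% lower, so the chromosome was near the background. When library totals were not scaled 11 of 1970 were higher and 86 lower, beside 0.258% and 3.71% of all genes. The smallest p-values belonged to TNR, an extracellular matrix protein of the nervous system (log2 difference -0.96, SE 0.12, adjusted p = 0.0556), TLCD4 (-1.62, SE 0.25, adjusted p = 0.102) and LMOD1, an actin-nucleating protein of smooth muscle (-0.57, SE 0.09, adjusted p = 0.102) among lower values. Among higher values they belonged to GPR89A (0.68, SE 0.10, adjusted p = 0.102), the olfactory receptor gene OR10K2 (2.12, SE 0.34, adjusted p = 0.102) and LCE1B, a late cornified envelope gene (1.60, SE 0.26, adjusted p = 0.102). GPR89A and LCE1B have close relatives on the same chromosome, and whether reads there are split between copies was not tested.

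No list of chromosome 1 genes had a member past the threshold. CKS1B differed by -0.01 (SE 0.07) and MCL1 by 0.05 (SE 0.09). In the 1q gain list of 32 genes, 16 values were lower and 16 higher, with a median of -0.00 beside -0.02 over all genes, and the smallest p-values were those of IL6R, a subunit of the interleukin 6 receptor (-0.41, SE 0.12, adjusted p = 0.189), and PRKAB2, a subunit of the kinase AMPK (0.49, SE 0.15, adjusted p = 0.214). In the 1p loss list of 20 genes the median was -0.01, and NRAS differed by -0.26 (SE 0.08, adjusted p = 0.219). Of these 20 genes 6 were lower and 1 higher at an unadjusted p under 0.05, beside 9.08% and 4.89% of all genes, and 125 of 1009 short-arm genes were lower at that threshold.

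Of 22 tested genes in the list of ATF4 targets and stress genes, 10 values were lower and 12 higher (median 0.01). SESN2, a stress-induced inhibitor of mTORC1 signalling (-0.50, SE 0.18, adjusted p = 0.263), and ATF3, a related transcription factor (-0.23, SE 0.13, adjusted p = 0.479), had the smallest p-values. Of 16 tested NF-kB genes, 7 values were lower and 9 higher (median 0.02), led by TNFSF4, the ligand OX40L (0.85, SE 0.15, adjusted p = 0.108), and TNFRSF25, a death-domain receptor (-0.48, SE 0.12, adjusted p = 0.148). Of 22 B and plasma cell surface genes, PTPRC, the phosphatase CD45 (-0.62, SE 0.16, adjusted p = 0.170), and FCRL5 (-0.25, SE 0.07, adjusted p = 0.186) led with 11 values in each direction (median 0.04). Among 24 housekeeping genes (median -0.02) CAPZA1, an actin-capping subunit (-0.45, SE 0.11, adjusted p = 0.155), and SFPQ, a splicing factor (0.28, SE 0.09, adjusted p = 0.230), led.

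The epidermal differentiation genes, which encode proteins of the outer skin, had the highest median, 0.39 over 22 tested genes with 17 values higher, and 9 were higher at an unadjusted p under 0.05, beside 4.89% of all genes and 96 of 961 on the long arm. LCE1B had 278 ± 124 covered bases in controls and 1151 ± 230 in knockdown libraries, and SPRR1A 276 ± 69.2 and 919 ± 144 (SD, n = 3; log2 difference 1.33, SE 0.25, adjusted p = 0.108). The cluster lies at the weak end of the scale: the 8 of its 22 genes with a summit in all libraries had a median height of 6.59 to 7.16 times the rate in controls. The lists from knockdown cells held more weak regions on both arms, and a link of this to the higher values was not tested. Windows of neighbouring genes can overlap, so the 9 genes need not be separate observations. Markers of other cell types also had no member past the threshold: 0 of 7 tested T and NK cell markers (median 0.11), led by PTPN22 (-0.43, SE 0.13, adjusted p = 0.198) and XCL1 (0.98, SE 0.37, adjusted p = 0.277), 0 of 11 myeloid markers (median 0.15), led by FCER1G (0.17, SE 0.10, adjusted p = 0.495) and FCGR1A (0.15, SE 0.10, adjusted p = 0.557), and 0 of 10 epithelial and stromal markers (median -0.09), led by PRRX1 (0.37, SE 0.12, adjusted p = 0.233) and SFN (-0.31, SE 0.11, adjusted p = 0.255). At gene ends genome-wide, 7 of 7 plasma cell markers (SDC1, IRF4, PRDM1, XBP1, TNFRSF17, SLAMF7, CD38) carried a strong peak in all libraries. So did 7 of 10 markers of other cell types, including CD3E and COL1A1, while LYZ had none listed, so a peak alone did not separate cell types.

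Single regions listed in 1 group only were few. A region counted as control-only when it reached a −log10 q of 2 in all 3 controls and was not listed in any knockdown library, and the reverse for knockdown-only. The short arm had 164 control-only regions of 7633 (2.15%) and the long arm 159 of 16227 (0.980%), beside 1.5% of 216029 genome-wide. Knockdown-only regions numbered 6 on the short arm (0.0786%) and 23 on the long arm (0.142%), beside 0.102% genome-wide. These counts are thresholds on lists of unequal depth and carry no test. They rose when any 1 library was left out, to between 212 and 304 control-only regions on an arm, and to as many as 36 (without knockdown 2) and 117 (without knockdown 2) knockdown-only regions on the short and long arm.

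The 4 control-only regions with the highest lowest −log10 q lay at chr1:182261510-182261982, between genes with GLUL nearest (pileup 110, 151 and 152), at chr1:234271149-234271613 inside SLC35F3 (44, 55 and 42), at chr1:17441381-17441895 near RCC2, a regulator of chromosome condensation (98, 72 and 92), and at chr1:180451391-180451889 inside ACBD6 (43, 48 and 36). All of these were strong in all 3 controls. The 4 knockdown-only regions lay at chr1:221712979-221713417 inside DUSP10, a MAP kinase phosphatase gene (34, 37 and 30), at chr1:222653436-222653883 inside MIA3 (26, 26 and 32), at chr1:218874294-218874588 with LYPLAL1 nearest (13, 13 and 19), and at chr1:85321663-85321893 inside DDAH1 (12, 13 and 13). Only the DUSP10 region was strong in all 3 knockdown libraries. The first control-only region and the RCC2 region lay on local backgrounds of 8.72 and 5.08 times the library rate, the ACBD6 and DDAH1 regions at 1.0 times.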

How the data were processed

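ATAC-seq was measured in 6 libraries of KMS-11 cells, 3 per group. The submitters' processing notes name MACS2 and hg38. The aligner, the MACS2 version and its settings were not stated in the labels used. The deposited lists give for each summit a score, a fold (ratio of pileup to local background), a −log10 p and a −log10 q, so each peak's p-value and q-value are the authors' own. Pileup and local background were computed back from fold and −log10 p for 100.0% of summits (recomputed within 0.01). The library rate is the most common local background. Depth in reads is unknown. Lists held 220250 to 238246 summits.

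Arm ratios were tested by exact sign-flip tests over libraries and groups by exact permutation. Covered length was tested with limma 3.58.1 in R 4.3.3 (trend, robust), on log2 of scaled bases plus 1000 (bins) or 200 (genes within 10 kb, covered in at least 3 libraries). The titles call the libraries biological replicates but name no separate cultures, so p-values measure only the spread between these samples. Same-numbered libraries deviated together over bins (correlations 0.277, 0.457 and 0.439) but not over genes. The main comparisons between groups were unpaired and did not use the replicate numbers. A fit with the replicate numbers as a block is given among the other settings below. The sign-flip tests of the arm ratios took the 6 libraries as separate units and were not repeated with this block. Their p-values therefore make no allowance for a link between same-numbered libraries.

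The members and gene lists were chosen with earlier results of these data known. Named genes were MCL1, CKS1B, in each list the members past the threshold or else the 2 smallest p-values, and of all chromosome 1 genes the 3 smallest p-values in each direction where none passed; named bins and single regions followed likewise fixed counts. TXNDC12, CPT2, MAGOH, HOOK1, HDGF, ADAR, KDM5B, BCL10, CD58, TENT5C, CDKN2C and FAF1 were named after their values were seen. Of 188 listed genes, 4 are not on chromosome 1 in the RefSeq table (GRCh38.p14) and were left out. Windows of 5, 1, 0.25 and 0.05 Mb were viewed before the blocks were drawn. For 1 gene that the rule selects, values are not reported here.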

Additional observations from a re-analysis of the deposited data

How the results depend on the processing

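Each comparison was recomputed under other settings, changing 1 choice at a time. The long over short arm ratio kept its direction in all 5 measures under every alternative, and its call in 35 of 36 alternatives that kept all 6 libraries; the raised background share lost it with the short arm up to 60 Mb only (log2 0.12). With 1 library left out the exact test cannot go under 0.0625, so no call was possible, and the log2 ratios stayed within 1.96 to 2.12 (weak regions), 0.56 to 0.59 (strong regions), -0.53 to -0.44 (fold), 0.27 to 0.29 (pileup) and 0.24 to 0.32 (raised share).

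Knockdown over control on the arms depended on the reference and on list length. When values were not set against other chromosomes, the log2 difference was 0.66 for weak and -0.44 for strong regions, -0.10 for fold and -0.62 for pileup on the long arm, and 0.15 for the raised share on the short arm, each opposite in sign to the value set against the other chromosomes (-0.32, 0.09, 0.32, 0.0065 and -0.07 in that order). With lists of equal length the short arm turned to -0.26 (weak regions), 0.058 (fold) and 0.22 (raised share), and long-arm pileup to -0.0040. Values near 0 also changed sign: short-arm strong regions to 0.0040 without the bins around the centromere and 0.063 up to 60 Mb; pileup to 0.014 (regions away from gene ends) and 0.025 (up to 60 Mb) on the short arm, -0.0043 (without the centromere bins) on the long arm, and -0.018 for the difference in arm ratios (up to 60 Mb). With 1 library left out, short-arm strong regions ranged from -0.011 to 0.0026, pileup from -0.029 to 0.0050 on the short arm and -0.017 to 0.014 on the long arm, and its difference in arm ratios from -0.018 to 0.038. The cause was not tested.

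Lower bins numbered 21 of 47 without scaling (62.1% of all bins of the genome), 30 of 228 in bins of 1 Mb (15.6%) and 6 of 24 in bins of 10 Mb (32.8%). Higher bins numbered 0, 46 and 4 in these settings (4.44%, 13.5% and 17.7% of all bins), and 7 both with peaks of −log10 q of at least 2 (15.2%) and with lists of equal length (16.8%). With 1 library left out 5 to 12 bins were higher and 11 to 12 lower. Genes called lower were 86 of 1970 without scaling (3.71% of all genes), 61 of 1806 at −log10 q of at least 5 (3.17%), 1 of 1970 with 5 times the pseudocount (0.0269%) and 32 of 2041 in windows of 50 kb (1.95%). Genes called higher in these settings were 11 (0.258%), 563 (30.7%), 0 (0.00538%) and 73 (2.17%). With the replicate block, 12 bins were lower and 14 higher (36.9% and 24.3% of all bins), and 0 genes were called, so the pairing changed no count by more than 1.5 times. Control-only regions were 17 (short arm) and 18 (long arm) when −log10 q had to reach 10, and 295 on the long arm with any listed peak. Knockdown-only regions were 30 and 172 with any listed peak, 0 and 1 when −log10 q had to reach 10, and 3 and 9 with an overlap of at least 0.5 of the region. With 1 library left out, control-only regions ranged from 212 to 283 (short arm) and 237 to 304 (long arm), and knockdown-only regions from 8 to 36 and from 32 to 117. Read depth is unknown.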
